A study of Mus musculus with 9 samples.

Results

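Tac1, Tac2, Tacr1 and Tacr3, 4 genes of the tachykinin system, were followed across 3 regions of the mouse forebrain. They were taken by gene symbol from an annotation of the Affymetrix Mouse430_2 array, which gave 7 probe sets among 45037. All 4 genes had at least 1 probe set past the filter on dim signals and so were among the 14208 genes tested. A first region was BNST, the bed nucleus of the stria terminalis, part of the extended amygdala. The others were dStr, the dorsal striatum, and NAc, the nucleus accumbens or ventral striatum. The 3 biological replicates per region, as titled in the labels, were hybridised to 1 array each. The tissue was punched from 300 µm slices of mice that had received no treatment named in the labels other than brief isoflurane before decapitation, a step shared by all groups. The sources used here do not state strain, age or whether tissue of several animals was pooled. The p-values therefore measure the spread between these samples, which may be partly technical. Across genes, the arrays BNST 1 and NAc 1 stood apart from their groups. BNST 1 correlated more closely across genes with NAc 3 (r = 0.97) than with its own region (0.93 and 0.95), and NAc 1 had the lowest r within its region (0.91 and 0.94). NAc 3 was likewise slightly closer to BNST 1 than to its own region (0.91 and 0.96), and it was kept where BNST 1 and NAc 1 are left out. Many results that change without BNST 1 and NAc 1 are given with and without them, but not every such change is listed.

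Tachykinins are short neuropeptides cut from larger precursors and released from dense-core vesicles. Tac1 encodes the precursor of substance P and neurokinin A, and Tac2 encodes the precursor of neurokinin B. Their receptors couple mainly to Gq proteins and phospholipase C, with the receptor of Tacr1 preferring substance P and that of Tacr3 preferring neurokinin B. In the striatum, substance P is made by the medium spiny projection neurons of the direct pathway, which also carry the dopamine receptor Drd1. Cholinergic and somatostatin interneurons are known to respond to it through the Tacr1 receptor.

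The 250 bases before the start of the 2 peptide genes are shown because these genes differed in opposite directions between BNST and the striatal regions. The windows are RefSeq sequence of build GRCm38.p6, plus strand, at chr6:7554811-7555060 for Tac1 and chr10:127724228-127724477 for Tac2. Capitals mark matches, on either strand, to a cyclic AMP response element half-site (TGACG) or an E-box (CACGTG).
Tac1: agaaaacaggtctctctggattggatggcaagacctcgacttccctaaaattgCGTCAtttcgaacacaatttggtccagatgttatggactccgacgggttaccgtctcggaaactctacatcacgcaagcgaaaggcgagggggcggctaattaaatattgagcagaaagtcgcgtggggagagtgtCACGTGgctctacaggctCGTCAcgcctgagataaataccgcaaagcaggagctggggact
Tac2: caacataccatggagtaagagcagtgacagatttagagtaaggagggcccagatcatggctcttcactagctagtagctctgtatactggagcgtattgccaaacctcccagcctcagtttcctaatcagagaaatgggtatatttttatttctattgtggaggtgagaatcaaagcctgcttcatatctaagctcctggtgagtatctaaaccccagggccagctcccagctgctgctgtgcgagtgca
The Tac1 window held 2 half-sites and 1 E-box, the E-box lying between 61 and 56 bases before the start. The Tac2 window held neither set of letters, nor did either window hold TATAAA. Of all 32851 windows of this length, 17.8% held the half-site, 6.02% the E-box and 12.4% TATAAA. The motifs were picked with the sequences in view, and no binding or chromatin data bear on them here.

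Tac1 was lower in BNST than in either striatal region, whereas Tac2 was highest in BNST, intermediate in NAc and near the lowest deposited value in dStr. No difference between regions passed the test for Tacr1 or Tacr3. The opposite directions of the 2 peptide genes were known when they were picked, so they are given as a description. The values are linear probe-set intensities whose lowest value is 15 on every array, and differences are those of the region means of log2(intensity + 16). Intensities of different probe sets have no common scale and are not set against each other.

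The Tac1 intensity (probe set 1416783_at) was 1385, 692 and 1564 on BNST arrays 1, 2 and 3. It was 4965, 3945 and 3470 on the NAc arrays and 3898, 4665 and 4020 on the dStr arrays. Every BNST array lay below every NAc and dStr array, and the values of NAc and dStr overlapped. The region means were 1214 ± 461 (SD, n = 3 arrays) in BNST, 4127 ± 764 in NAc and 4194 ± 412 in dStr. Tac1 was 3.53-fold lower in BNST than in NAc (log2 difference -1.82, SE 0.27, limma adjusted p = 0.0081). Against dStr it was 3.61-fold lower (-1.85, SE 0.27, adjusted p = 0.00145). With the mean of both Tac1 probe sets, the second of which was dim, the differences were -1.001 (adjusted p = 0.0165) and -1.14 (adjusted p = 0.00187). Between NAc and dStr the log2 difference was -0.03, with a 95% interval from -0.64 to 0.57 (adjusted p = 0.974), so the 3 arrays a region could not resolve a difference within that range. In bulk tissue, fewer cells that express a gene and less RNA per cell cannot be told apart.

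Tac2 (probe set 1419411_at) ran the other way between BNST and the striatal regions. Its intensity was 843, 753 and 1294 on BNST arrays 1 to 3, 147, 302 and 295 on the NAc arrays, and 27.5, 26.6 and 21.4 on the dStr arrays. None of the 3 regions overlapped another, and no dStr array was at the floor itself. The means were 964 ± 290 in BNST, 248 ± 87.8 in NAc and 25.1 ± 3.28 in dStr. The log2 difference between BNST and NAc was 1.92 (SE 0.27, adjusted p = 0.00635) and that between NAc and dStr 2.62 (SE 0.27, adjusted p = 0.00128). Neighbours in the order BNST, NAc, dStr thus differed beyond their spread. From BNST to dStr the fitted difference was 4.54 (adjusted p = 2.92e-05). As a ratio of mean intensities, Tac2 was 3.88 times as high in BNST as in NAc. All 3 dStr values lay under the 40th percentile of their array, the limit used in the filter on dim signals, so the size of a difference against dStr is not settled by them. The fitted differences against dStr moved with the constant added before the logarithm, from 5.17 with 1 to 3.49 with 64 for BNST and from 3.19 to 1.76 for NAc, and both passed throughout. With each dStr array set to its 40th percentile, Tac2 was at least 10.5-fold higher in BNST than in dStr and at least 2.78-fold higher in NAc. The fitted differences of other genes against regions where they read under that percentile depend on the constant in the same way.

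**Figure D1:**
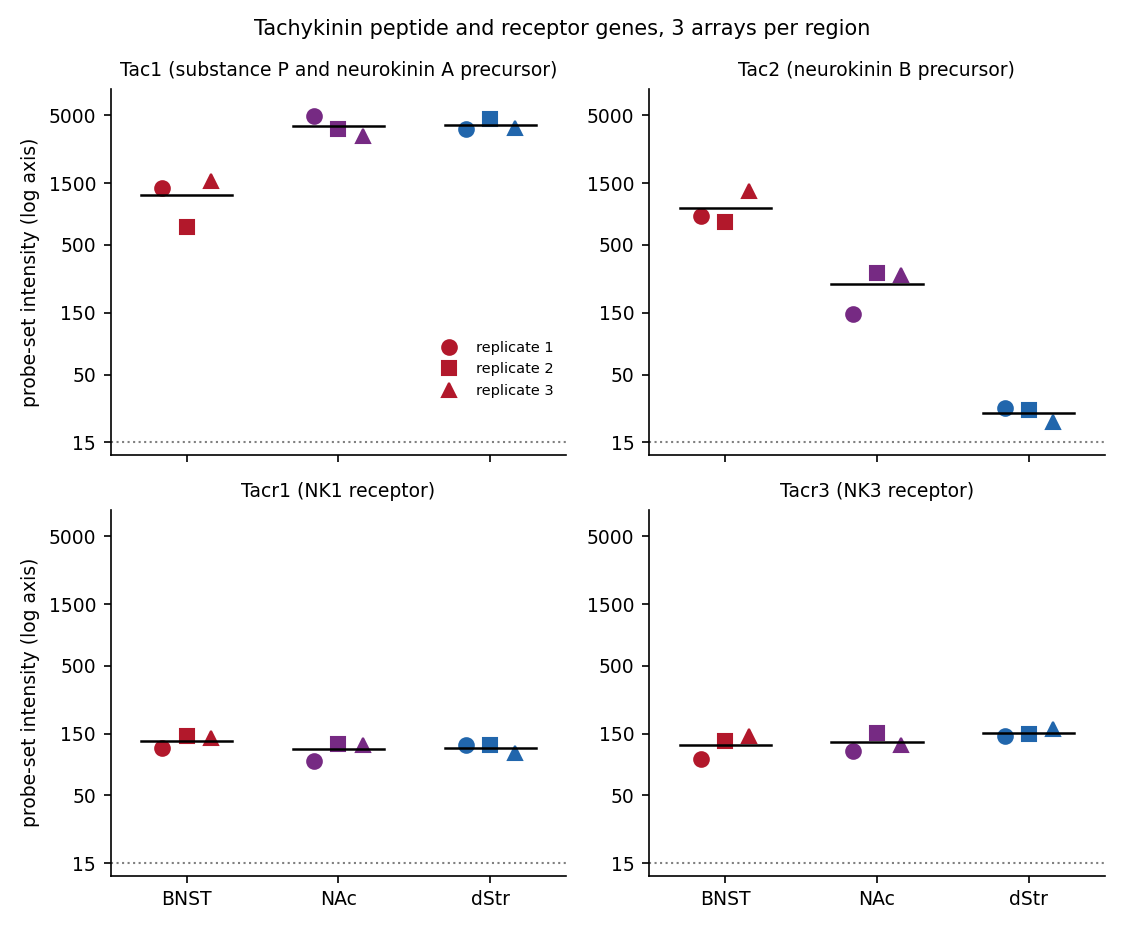
Probe-set intensity (log axis) of the 4 genes on each array of BNST, NAc and dStr, with symbols for the replicate number, a bar for the mean of 3 arrays and a dotted line at the floor of 15. The 3 BNST arrays are the lowest for Tac1 (692 to 1564) and the highest for Tac2 (753 to 1294), and the receptor genes lie between 92.8 and 163 on every array.

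Tacr1, the gene of the substance P receptor, had 1 probe set (1422282_at). It read 115, 144 and 138 on BNST arrays 1 to 3, 92.8, 125 and 123 on the NAc arrays, and 123, 121 and 105 on the dStr arrays. The regions overlapped in each pair, and NAc array 1 held the lowest value. The means were 132 ± 15.2 in BNST, 114 ± 18.1 in NAc and 116 ± 9.78 in dStr. The 95% intervals of the log2 differences ran from -0.13 to 0.53 for BNST minus NAc (adjusted p = 0.687), from -0.17 to 0.49 for BNST minus dStr (adjusted p = 0.517) and from -0.37 to 0.29 for NAc minus dStr (adjusted p = 0.945). None of these intervals reached beyond 0.53 on the log2 scale in either direction. The values lay between the 49.1 and 65.3 percentiles of their arrays, where background may make up much of the signal. The intervals therefore limit a difference in probe-set intensity and not one in Tacr1 RNA.

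Tacr3, the gene of the neurokinin B receptor, was represented by the probe set 1440803_x_at, whose suffix marks probes that may also match other transcripts. It read 95.2, 131 and 144 on the BNST arrays, 109, 152 and 123 on the NAc arrays, and 145, 149 and 163 on the dStr arrays. All dStr values exceeded all BNST values by a narrow margin, while NAc overlapped both. The means were 123 ± 25.2 in BNST, 128 ± 21.8 in NAc and 152 ± 9.5 in dStr, the reverse of the order of Tac2. None of the neighbours in this order differed past the test. The log2 difference of BNST minus dStr was -0.29 (SE 0.17, 95% interval -0.66 to 0.09, adjusted p = 0.297) and that of NAc minus dStr -0.23 (SE 0.17, adjusted p = 0.628). For BNST minus NAc it was -0.05 (adjusted p = 0.954), a sign that turned positive, at 0.0044, under quantile normalisation.

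**Figure D2:**
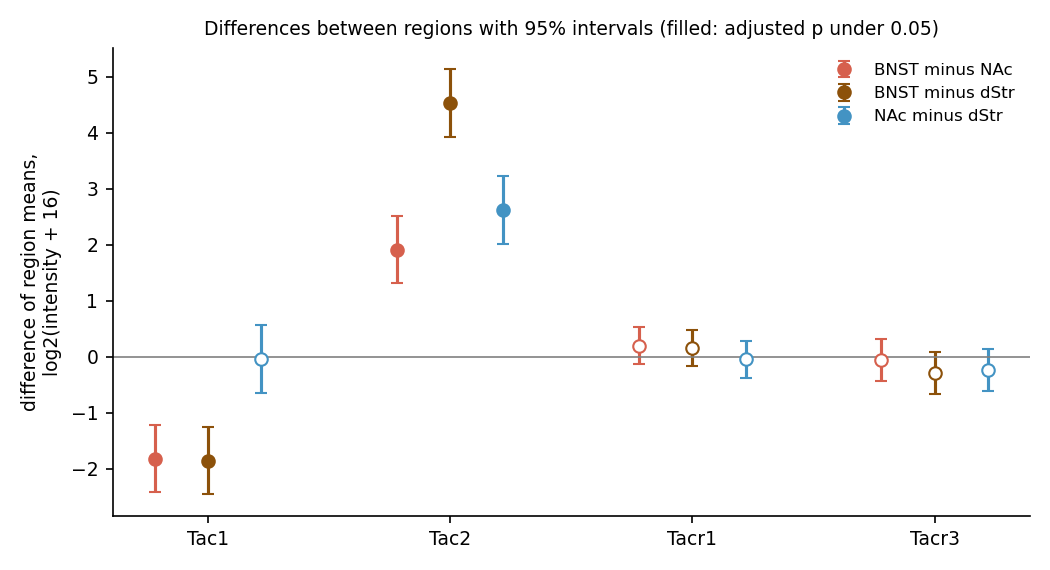
Difference between region means, in units of log2(intensity + 16), for each gene and pair of regions, with 95% intervals from the model over 9 arrays; filled points passed at an adjusted p under 0.05. The filled points are Tac1 at -1.82 and -1.85 and Tac2 at 1.92, 4.54 and 2.62, and all intervals of Tacr1 and Tacr3 include 0.

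The share of all genes called in each comparison is set beside the counts of members. The same shares apply to the counts of the gene lists further below. The directions of Tac1 and Tac2 were known when the members were picked, so these counts are no test of enrichment. Between BNST and NAc, where 2.24% of all genes tested were called (0.76% higher and 1.48% lower in BNST), 1 of the 4 members was higher and 1 lower. With dStr as the partner of BNST, 14.3% of genes were called (4.94% higher, 9.33% lower) and the members were again split 1 and 1. For NAc against dStr, 2.05% were called (0.95% higher and 1.1% lower in NAc), with 1 member higher and 0 lower. Regions whose arrays did not overlap were more common. BNST lay wholly above NAc for 5.79% of genes, Tac2 among them, and wholly below for 8.85%, Tac1 among them. It lay wholly above dStr for 14.9%, Tac2 among them, and wholly below for 21.5%, including Tac1 and Tacr3. NAc lay wholly above dStr for 9.11% of genes, where Tac2 was the only member, and wholly below for 10%, with 0 members.

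The other probe sets of the members were dim. The second Tac1 probe set, 1431883_at, read 67.2 to 70 in BNST, 72.1 to 90.3 in NAc and 89.5 to 107 in dStr. It was lowest in BNST, as was the brighter one, with no overlap between BNST and either other region. Tested by itself among 23823 probe sets, it had a log2 difference of -0.42 between BNST and dStr (SE 0.13, adjusted p = 0.0512) and of -0.18 between BNST and NAc (adjusted p = 0.65). The remaining Tacr3 probe sets, 1437029_at and 1450278_at, lay below the median of their array on all 9 arrays and did not pass the filter. Their BNST means of 61 ± 9.81 and 54.4 ± 16.2 were below their dStr means of 71.9 ± 16.6 and 73.1 ± 7.48, with overlapping arrays. They were not tested.

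**Figure D3:**
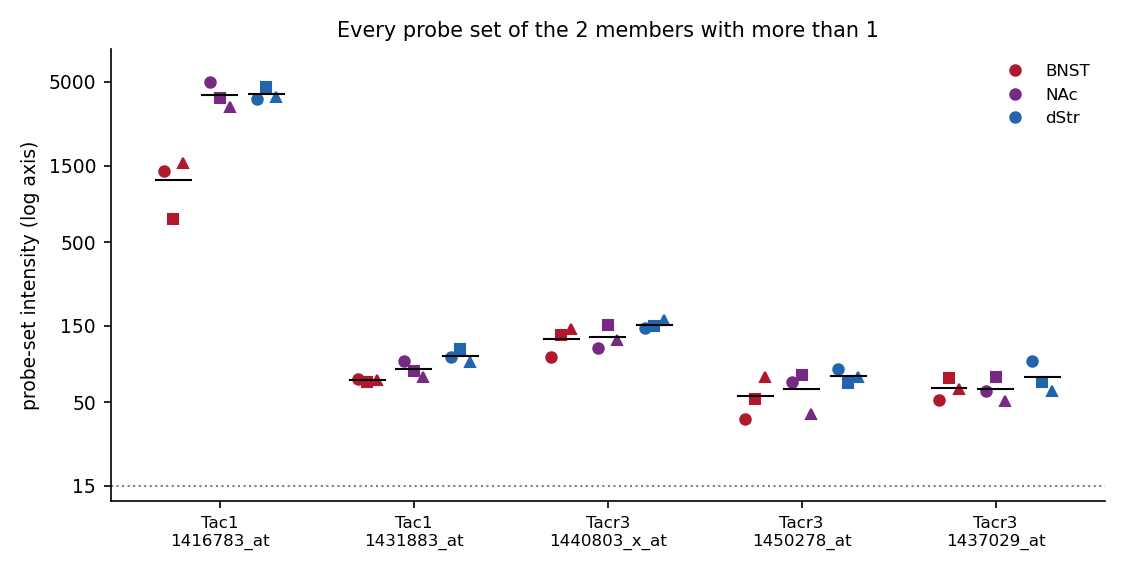
Intensity (log axis) of every probe set of Tac1 and Tacr3 on the 9 arrays, coloured by region, with a bar for each region mean and a dotted line at the floor of 15. The dStr mean exceeds the BNST mean in all 5 probe sets, with region means from 54.4 to 152 for every set except the first Tac1 set.

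Tac4 and Tacr2 complete the family on this array. Tac4, which encodes the hemokinin precursor, read 48.7 to 81.2 and did not pass the filter. Tacr2, which encodes the neurokinin A receptor, averaged 105 ± 9.79 in BNST, 94.8 ± 5.68 in NAc and 84.4 ± 10.3 in dStr. Its log2 difference between BNST and dStr was 0.27, which did not pass (adjusted p = 0.198).

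Among enzymes that cut tachykinins, Mme followed the reverse of the order of Tac2. Mme encodes neprilysin, a membrane peptidase that degrades substance P and neurokinins. Its intensity was 29.3, 17.6 and 21.9 on the BNST arrays, 202, 93.7 and 63.2 on the NAc arrays, and 306, 388 and 328 on the dStr arrays. The regions did not overlap, with BNST close to the floor. The log2 difference was -1.68 between BNST and NAc (SE 0.31, adjusted p = 0.0201), -3.20 between BNST and dStr (SE 0.31, adjusted p = 0.000152) and -1.52 between NAc and dStr (SE 0.31, adjusted p = 0.0317). All BNST values lay under the 40th percentile of their array, so by the bound used for Tac2 Mme was at least 4.02-fold lower in BNST than in dStr. Against NAc the same calculation gave 1.4-fold, but NAc 3 itself lay under that percentile, so no least difference is set there. The call between BNST and NAc was lost without BNST 2, BNST 3 or NAc 2 (adjusted p up to 0.0955). That between NAc and dStr was lost without any 1 of BNST 3, NAc 2, NAc 3 and the 3 dStr arrays (up to 0.129).

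Mme was the only member of the 6 peptidase genes to pass in any of the 3 comparisons. Ece1, an endothelin-converting enzyme that cleaves internalised substance P, averaged 259 ± 79.3 in BNST, 313 ± 154 in NAc and 576 ± 82.3 in dStr. Its BNST minus dStr difference of -1.13 did not pass (adjusted p = 0.0591). Ace, Ece2, Dpp4 and Prep had differences between -0.25 and 0.37. Over the 6 genes the median log2 difference was -0.04 for BNST minus NAc, -0.06 for BNST minus dStr and -0.12 for NAc minus dStr, beside medians of -0.05, -0.06 and -0.01 over all genes. Without NAc 1, a further gene passed as lower in BNST than in dStr, as it did without NAc 3 and without BNST 1, the last of which also added 1 higher. Without BNST 1 and NAc 1 together, Ece1 passed as lower in BNST than in NAc (-0.86) and than in dStr (-1.36), and Ece2 as higher than in dStr (0.56).

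The measured genes that turn precursors into active peptides did not pass in any comparison over all 9 arrays. The convertase gene Pcsk2 was listed but not measured, so nothing is said of it. Of 9 listed, 8 were measured, and 0 of 8 passed in each pair of regions by limma. At an unadjusted p under 0.05 there were 2 for BNST minus dStr and 0 for the other pairs. Cpe, the carboxypeptidase that trims the cleaved ends, averaged 5561 ± 447 in BNST, 4680 ± 728 in NAc and 4103 ± 442 in dStr (BNST minus dStr 0.44, adjusted p = 0.0825). Pam, which adds the terminal amide, averaged 592 ± 70.5, 468 ± 91.2 and 505 ± 111, and the convertase gene Pcsk1 114 ± 21.7, 108 ± 17.4 and 117 ± 11.1. Their list medians were 0.11, 0.12 and -0.11 in the order BNST minus NAc, BNST minus dStr and NAc minus dStr. Without NAc 3, 1 gene passed as higher in BNST than in NAc. Without BNST 1 and NAc 1 together, Furin, a convertase gene, passed as lower in BNST than in NAc (-0.69, adjusted p = 0.0227) and than in dStr (-0.71, adjusted p = 0.00659), and Cpe as higher than in dStr (0.50, adjusted p = 0.0252). In that setting 2203 and 4150 of all 14208 genes passed in these 2 pairs, so the gains say little about the list.

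Downstream of the receptors, 14 of 19 listed genes of Gq signalling and receptor desensitisation were tested. Between BNST and dStr, 1 was higher and 2 lower. Over all genes 14.3% were called in this pair (4.94% higher, 9.33% lower), so the count says little about the list. In the other pairs 0 passed by limma, with 3 (BNST and NAc) and 2 (NAc and dStr) at an unadjusted p under 0.05. Without NAc 1, 1 passed as higher and 1 as lower in NAc than in dStr, and without BNST 1 and NAc 1 together these were Grk3 and Plcb1, with Gnaq and Prkcb lower in BNST than in NAc (-0.71 and -1.17). Grk6 then also passed as lower in BNST than in dStr (-0.62, adjusted p = 0.00688). Grk3, a kinase that desensitises receptors, was 793, 518 and 540 on the BNST arrays and 286, 231 and 261 on the dStr arrays. That was a log2 difference of 1.18 (adjusted p = 0.00631). Plcb1, a phospholipase C that Gq activates, averaged 813 ± 137 in BNST and 1937 ± 244 in dStr (-1.24, adjusted p = 0.0213). The kinase gene Prkcb averaged 2073 ± 848 and 4729 ± 433 (-1.28, adjusted p = 0.0124). Plcb1 lost its call without any 1 of BNST 2, BNST 3 and the 3 dStr arrays (adjusted p up to 0.0835) and Prkcb without dStr 3 (0.0545). Gnaq itself, the gene of the Gq alpha subunit, differed by 0.01 between BNST and dStr (adjusted p = 0.978). The list medians were -0.01, 0.02 and 0.03.

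**Figure D4:**
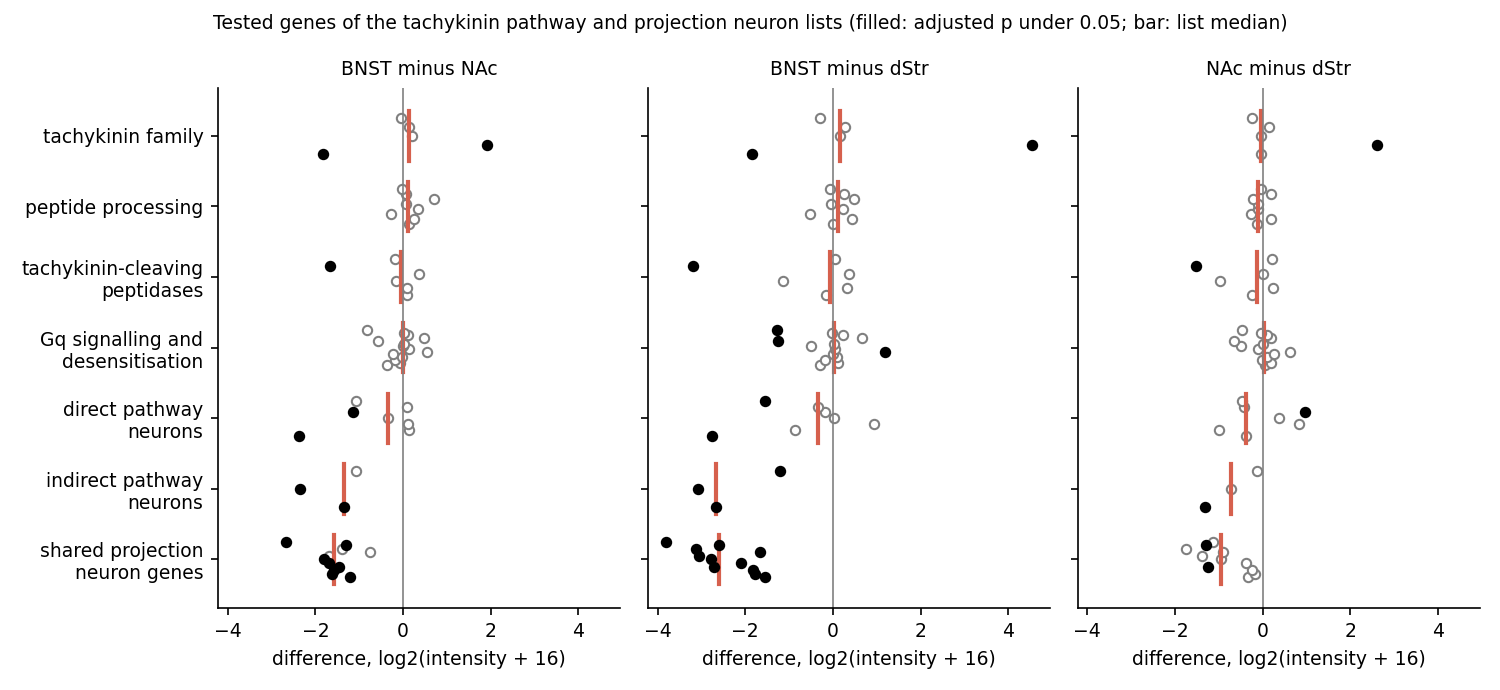
Log2 differences of the tested genes of 7 lists in the 3 comparisons, 1 point per gene, filled where the adjusted p was under 0.05, with a bar at each list's median. Points of the processing list are all open, and the shared projection neuron genes lie below 0 in every comparison, with medians of -1.58, -2.59 and -0.95.

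Tac1 moved with genes shared by the striatal projection neurons, and with part of the direct pathway genes, between BNST and the striatum. Of 11 measured genes shared by both projection neuron types, 8 were lower in BNST than in NAc and 11 lower than in dStr, with list medians of -1.58 and -2.59. Among direct pathway genes 2 of 7 were lower in each of these pairs (3 and 4 without BNST 1 and NAc 1 together). Over all genes 1.48% were called lower in BNST than in NAc and 9.33% lower than in dStr. The median of this list was -0.34 in both pairs, and 3 of the 7 had positive differences against NAc and 2 against dStr. Drd1 was 546, 121 and 275 on the BNST arrays, 1873, 1622 and 1016 on the NAc arrays and 1837, 1992 and 1876 on the dStr arrays. That made it lower in BNST than in NAc by a log2 difference of -2.38 (adjusted p = 0.0167; up to 0.0837 without BNST 3 or NAc 2). Against dStr the difference was -2.76 (adjusted p = 0.00173). Pdyn, the prodynorphin gene of the same neurons, was lower in BNST than in NAc (-1.15, adjusted p = 0.0085) but differed by -0.17 from dStr (adjusted p = 0.556). Slc35d3, the other gene lower in BNST than in dStr, had -1.54 (adjusted p = 0.0364). It lost that call without any 1 of BNST 2, BNST 3, NAc 2 and the 3 dStr arrays (up to 0.135). Pdyn was the only direct pathway gene called between NAc and dStr over all 9 arrays, higher in NAc by 0.98 (adjusted p = 0.017, up to 0.09 without NAc 2 or any 1 dStr array). Without BNST 1 and NAc 1 together, Isl1 also passed as higher in NAc than in dStr (0.69, adjusted p = 0.0355) and Ebf1 as lower (-0.83, adjusted p = 0.0081).

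The indirect pathway genes differed in the same direction as Tac1. Drd2 and Gpr6, 2 of the 3 measured, were lower in BNST than in NAc (-1.34 and -2.36, Drd2 at an adjusted p of 0.066 without BNST 3), and all 3, with Penk at -1.21, were lower than in dStr. Penk also passed against NAc without BNST 1 and NAc 1 together (-1.01, adjusted p = 0.0366) and under quantile normalisation (-0.96, adjusted p = 0.0298). The summed intensity of the 11 shared genes was 4459 to 11070 in BNST, 18070 to 25310 in NAc and 33410 to 37120 in dStr, and none of the 11 was at the floor on all arrays. The part of these neurons in the Tac1 difference was not tested. Between NAc and dStr, all 11 shared genes had negative differences (median -0.95) and 2 passed as lower, where Tac1 had -0.03. The count of 8 became 2 without BNST 3 or NAc 2, 5 without BNST 2 or any 1 dStr array, and 11 without BNST 1 and NAc 1 together. The count of 2 became 4 without BNST 1, 3 without BNST 2, 1 without NAc 3 or any 1 dStr array, and 6 without those 2 arrays.

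**Figure D5:**
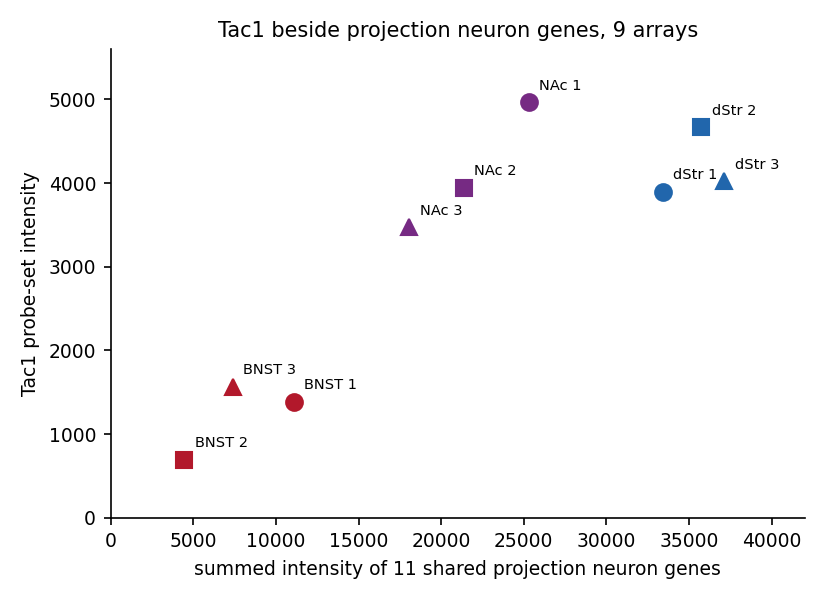
Tac1 intensity against the summed intensity of 11 shared projection neuron genes on the 9 arrays, coloured by region and labelled by array. BNST 2 has the lowest value on both axes (692 and 4459), and the dStr arrays lie to the right of the NAc arrays at overlapping Tac1 values.

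Tac2 is a classical marker of the medial habenula, and genes of the habenula and of other regions and cell types were checked beside it. Of 5 measured habenula genes 3 were tested, and by limma 0 passed in any comparison, adjusted or at an unadjusted p under 0.05. Their summed intensity was 419 to 515 in BNST, 439 to 502 in NAc and 434 to 540 in dStr, so the regions overlapped. Gpr151, the most specific of them, averaged 64.2 ± 12.8, 71.8 ± 13.7 and 63.5 ± 15.8, with its highest value of 87.4 under every array median. Among 7 thalamus genes, Slc17a6 and Prkcd were higher in BNST than in NAc (1.83 and 1.20) and than in dStr (2.11 and 1.18). Prkcd also marks neurons of the extended amygdala. Of the 7, 6 had positive differences in both pairs with BNST, and by limma 4 (against NAc) and 3 (against dStr) had an unadjusted p under 0.05. The summed thalamus level overlapped between regions, at 2356 to 2978, 2004 to 2874 and 2240 to 3027. Its brightest gene, Tcf7l2, ran the other way, with means of 1381, 1617 and 1806, so the sum says little about the dimmer genes. Of 6 tested hypothalamus genes 0 passed by limma, with at most 1 in a comparison at an unadjusted p under 0.05 (1 passed as lower in BNST than in dStr without NAc 1).

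Ependymal genes moved with the BNST label. Of 6 tested genes of ependyma and choroid plexus 4 were higher in BNST in both pairs, and the summed intensity of the 8 measured was 1620 to 3347 in BNST, 578 to 607 in NAc and 520 to 648 in dStr. Otx2 was at the floor on all NAc and dStr arrays. Astrocyte genes had sums of 6380 to 8373, 4269 to 5342 and 4123 to 4928, with 1 of 6 higher in BNST than in NAc (2 without BNST 1 or NAc 3, 4 under quantile normalisation) and 3 of 6 higher than in dStr. The part of these cells in the Tac2 difference was not tested. Within BNST, array 3 was highest for both Tac2 and the ependymal sum. It was also highest for Tac1, which differed the other way between regions, so this match is not particular to Tac2. Between NAc and dStr, where Tac2 differed by 2.62, the ependymal sums overlapped and 0 of the 6 genes passed.

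Markers of the cells that carry tachykinin receptors in the striatum did not pass the test over all 9 arrays, and those of somatostatin interneurons passed in part without BNST 1 and NAc 1. Of the cholinergic interneuron list only Chat and Lhx8 were tested, and 0 passed by limma, adjusted or at an unadjusted p under 0.05, with Slc5a7 and Slc18a3 under the filter. Chat averaged 104, 106 and 104 in BNST, NAc and dStr, close to the array medians of 93.9 to 102, so its result says little. The untested Slc5a7 averaged 22.16, 41.55 and 45.77, and Slc18a3 41.45, 48.7 and 51.01. Of the 4 somatostatin interneuron genes 0 passed after adjustment and 1, Sst, at an unadjusted p under 0.05 between BNST and dStr (1 passed without NAc 1 or NAc 3, and 1 under quantile normalisation). Without BNST 1 and NAc 1 together, Sst passed as higher in BNST than in dStr (0.88, adjusted p = 0.00271) and in NAc than in dStr (0.71, adjusted p = 0.0366). Npy, a neuropeptide gene of the same interneurons, was then lower in BNST than in NAc (-1.40, adjusted p = 0.0031) and than in dStr (-0.93, adjusted p = 0.00606). Sst averaged 712 ± 116 in BNST and 378 ± 28.4 in dStr (0.88, adjusted p = 0.0531), and Nos1 averaged 456 ± 65.3, 435 ± 132 and 636 ± 208.

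The genes most like each member over the 9 arrays are a description, because 9 arrays in 3 regions share the regional differences. For Tac1 they were Cpne5 (Pearson r = 0.99), Meis2 (0.99), Ift57 (0.99), Phactr1 (0.98) and Penk (0.98). Penk encodes proenkephalin, the opioid precursor of the indirect pathway, and read 2238, 1316 and 2773 in BNST, 5161, 4088 and 3671 in NAc, and 4079, 5205 and 4870 in dStr. Within BNST, Tac1 and Penk were both lowest on array 2 and highest on array 3, and in NAc both were highest on array 1. After subtracting region means, r between Tac1 and Penk was 0.98 over the 9 arrays.

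For Tac2 the closest were Rsph9 (r = 0.99), a gene of ciliary radial spokes, Hpcal1 (0.99), a neuronal calcium sensor, Pnck (0.99), a calmodulin-dependent kinase, Tmem255a (0.98) and Galnt9 (0.98). All 5 were higher in BNST than in dStr and higher in NAc than in dStr past the test, and Rsph9 alone among them also passed between BNST and NAc (0.87, adjusted p = 0.0182, up to 0.105 without BNST 3 or NAc 2), joined by Hpcal1, Pnck and Tmem255a without BNST 1 and NAc 1 together. Between NAc and dStr, Rsph9 lost its call without dStr 3 (0.0575) and Galnt9 without any 1 of 7 arrays, all but BNST 1 and NAc 1 (up to 0.201). Tmem255a was 1506, 1207 and 1383 in BNST, 370, 887 and 815 in NAc and 127, 145 and 133 in dStr. The genes most like Tacr1 (Cela1, Csn1s2a, Cd209g, Cfap43 and Dpys, r from 0.92 to 0.94) and Tacr3 (Dnajc14, Afmid, Trem1, Agtr1a and Arrdc4, r from 0.91 to 0.98) passed in no comparison.

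Over the whole series, array medians lay between 93.9 and 102, and 2270 to 2698 probe sets per array were at the floor. Without BNST 1 and NAc 1 the log2 difference of Tac1 was -1.81 between BNST and NAc and -1.99 between BNST and dStr. That of Tac2 was then 1.67, 4.61 and 2.94 for BNST minus NAc, BNST minus dStr and NAc minus dStr. All 5 calls held. Of 14208 genes, 702 were higher and 1325 lower in BNST than in dStr, a split that quantile normalisation turned to 1265 and 1166. Between BNST and NAc the split of 108 higher and 210 lower became 200 and 235. Of 3 measured BNST markers only Crh passed, at 476 ± 172 in BNST, 133 ± 71.8 in NAc and 19.2 ± 6.87 in dStr, and Esr1 and Nr2f2 did not. Its call against NAc was lost without any 1 of the BNST or dStr arrays (adjusted p up to 0.128), and its call between NAc and dStr without NAc 2, NAc 3 or any 1 dStr array (up to 0.113). Of 5 tested ventral striatum genes 4 passed as higher in NAc than in dStr, 2 of them without dStr 1 or dStr 3, and of 3 dorsal striatum genes 2 passed as lower. Of 5 microglia genes 3 were lower in BNST than in dStr, 1 without BNST 2 or dStr 3 and 2 without BNST 3, dStr 1 or dStr 2. By limma 0 of 5 oligodendrocyte genes, 0 of 4 endothelial genes and 0 of 1 cortical glutamatergic gene passed in any comparison, with at most 1 gene of a list in a comparison at an unadjusted p under 0.05. Single endothelial genes passed as lower in BNST than in dStr without BNST 1, NAc 1 or dStr 2. Without BNST 1 and NAc 1 together, 1 oligodendrocyte, 1 endothelial and 5 microglia genes were lower in BNST than in dStr.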

How the data were processed

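Total RNA (10 ng) from punches was labelled with biotin in 2 amplification cycles and hybridised to Affymetrix Mouse430_2 arrays, per the labels' protocols. The authors deposited 1 table of linear probe-set intensities, and the sources used here do not give the summarisation or scaling. Array medians differed by at most 0.12 on the log2 scale, and the deposited scaling was kept. Probe sets were named from the platform annotation through Entrez identifiers.

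Probe sets were kept where at least 3 of 9 arrays read above that array's 40th percentile, and a gene was represented by the kept probe set with the highest mean log2 value. The log2(intensity + 16) values were fitted with limma 3.58.1 in R 4.3.3, by 1 model with a mean per region (6 residual degrees of freedom). P-values are 2-sided, from the moderated test, and adjusted by Benjamini-Hochberg over 14208 genes per comparison, with a threshold of 0.05. The comparisons share arrays. The procedure was tested on simulated data.

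The text names the 4 members with all their probe sets, the genes of the fixed lists, and the 5 genes with the highest r with each member. The members and lists were chosen with earlier results of these data known, so nothing is adjusted over a list alone. A list sum adds the intensities of its measured genes, those under the filter included. At an unadjusted p under 0.05 there were 1796 genes for BNST and NAc, 4118 for BNST and dStr and 1860 for NAc and dStr.

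Alternatives were quantile normalisation, median centring, pseudocounts of 1 and 64, no filter or a filter at the 60th percentile, averaging the probe sets of a gene, a robust prior with trend, a replicate block, the arrays of a pair alone, and each array left out. Leaving out BNST 1 and NAc 1 together, testing every probe set by itself, and the lower bounds for regions under the 40th percentile were chosen after seeing the data.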

Additional observations from a re-analysis of the deposited data

How the results depend on the processing

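The 5 calls of Tac1 and Tac2 kept their direction in all 21 alternatives. They stayed past the threshold in all but 1 of them, the arrays of the 2 regions alone. There BNST minus NAc was -1.82 for Tac1 (limma adjusted p = 0.0565) and 1.92 for Tac2 (adjusted p = 0.0507). The differences were unchanged and the residual degrees of freedom fewer. The SE rose from 0.271 to 0.306 for Tac1 and from 0.272 to 0.308 for Tac2. The main p-values for BNST and NAc thus rest on a spread estimated partly from the dStr arrays. With 1 array left out, Tac1 ranged from -2.04 to -1.46 against NAc and from -2.08 to -1.50 against dStr. Tac2 ranged from 1.60 to 2.08, from 4.31 to 4.69 and from 2.45 to 2.94. The mean of both probe sets gave -1.001 and -1.14 for Tac1, and added constants of 1 and 64 gave 5.17 and 3.49 for Tac2 between BNST and dStr and 3.19 and 1.76 between NAc and dStr. No setting moved a Tacr1 or Tacr3 difference past the threshold. Signs near 0 turned for Tac1 NAc minus dStr (-0.176 to 0.0818 with 1 array left out) and Tacr1 NAc minus dStr (-0.10 to 0.0825, and 0.0825 without BNST 1 and NAc 1 together). They also turned for Tacr3 BNST minus NAc (-0.16 to 0.10, 0.0044 under quantile normalisation and 0.0068 without those 2 arrays). With the filter at the 60th percentile Tacr1 was not among the genes tested and has no value.

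The number of genes passing moved more. With 1 array left out it ran from 101 to 617 for BNST and NAc, from 1112 to 2674 for BNST and dStr and from 112 to 419 for NAc and dStr. Without BNST 1 and NAc 1 together it was 2203, 4150 and 707, and with every probe set tested by itself 3461 for BNST and dStr. The arrays of the pair alone gave 71 for BNST and NAc, 2526 for BNST and dStr and 272 for NAc and dStr. The cause of these moves was not tested. With a replicate block the counts were 196 for BNST and NAc, 1480 for BNST and dStr and 183 for NAc and dStr, and no call of the 4 members changed. Deviations from region means correlated above 0.1 in 2 of 9 same-numbered pairs (r from -0.51 to 0.26), so the replicate numbers were not treated as pairing the samples. Quantile normalisation moved the median of all genes from -0.06 to 0.06 between BNST and dStr. Signal over background limits Tacr1, Tacr3 and Tac2 in dStr.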
